A study of Homo sapiens with 12 samples.

Results

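The cytosolic aminoacyl-tRNA synthetases and the amino acid response genes governed by the transcription factor ATF4 were followed in IMR90 cells, a line of normal human lung fibroblasts, as they went from proliferation to replicative senescence. The 47 genes were taken as a list of symbols out of 38716 symbols in the tables: 20 synthetase genes, 11 genes of amino acid synthesis, 5 amino acid transporter genes and 11 regulators and stress-induced targets. The list was chosen with earlier results of these data known, so it is not a blind selection. All 47 had a row under the listed symbol. The question was how far the synthetases moved with the genes that make or import amino acids, at the level of mRNA and at the level of ribosome-protected fragments (RPFs).

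Libraries of both kinds were made from each lysate. Poly(A)-enriched RNA from a part of the lysate gave the RNA-seq library, and the fragments left under ribosomes after RNase digestion gave the Ribo-seq library. Each state, proliferating (Pro) and senescent (Sen), had 3 independently grown cultures, so there were 12 libraries from 6 lysates. All cells were passaged in MEM with non-essential amino acids and 10% serum under 5% CO2, senescence was reached by passaging alone, and cycloheximide was added at harvest. The cells descend from single isolates with the names I90-10 and I90-79, and the labels do not say which culture came from which isolate, so passage number, isolate and time in culture cannot be told apart from state here.

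Aminoacyl-tRNA synthetases each charge a tRNA with its amino acid and so supply the ribosome. When charged tRNA runs short, or when other stresses act, kinases phosphorylate the initiation factor eIF2α, which lowers general initiation and raises translation of ATF4, whose mRNA carries short upstream open reading frames. ATF4 then switches on genes for amino acid transport, serine and asparagine synthesis and tRNA charging. It also switches on CHAC1 and feedback regulators such as TRIB3, DDIT3 (CHOP) and PPP1R15A (GADD34).

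RNA-seq libraries held 7902427 to 14144455 reads in transcripts with a coding sequence (CDS). The Ribo-seq libraries were much shallower, with 54421, 685061 and 1718521 CDS reads in Pro 1, Pro 2 and Pro 3 and 1672807, 54708 and 583798 in Sen 1, Sen 2 and Sen 3. In Pro 1 and Sen 2 a count of 3 corresponded to 55.1 and 54.8 CPM (reads scaled to a common library total), against at most 5.14 in the other 4 Ribo-seq libraries, so a gene listed at 0 there can be well expressed. The CDS share of assigned Ribo-seq reads also differed, at 34.35, 84.35 and 88.82% in Pro 1, Pro 2 and Pro 3 and 77.81, 14.98 and 54.7% in Sen 1, Sen 2 and Sen 3. Every Sen library thus lay below Pro 2 and Pro 3. The part of this difference in the RPF values was not tested. The mRNA of the 8 fibroblast markers read here ranged from LUM at 142 ± 3.33 CPM to COL1A1 at 14220 ± 1033 CPM (SD, n = 3) in Pro, the epithelial and endothelial markers and PTPRC were at most 1.03 CPM in any library (EPCAM in Pro 2), and CD68, which is not restricted to leukocytes, went from 20.2 to 32.8 CPM. LMNB1 and MKI67 mRNA fell 7.18-fold and 4.92-fold, and CDKN1A mRNA rose 3.04-fold. Bulk libraries cannot tell fewer cells with a transcript from less of it per cell. CPM values were scaled by TMM factors within each library type, log2 fold changes are Sen over Pro, and a gene was called changed at an adjusted p under 0.15, the false discovery rate the study used.

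In mRNA, 43 of the 47 genes changed, 41 of them lower and 2 higher in senescent cells. Among all 12787 genes tested 73.6% changed, 37% lower and 36.6% higher, so a change as such was common, and 41 lower of 47 stands beside that 37%. The groups of 3 libraries did not overlap for 43 of 47 genes, beside 67.8% of all genes. In RPFs 34 of the 45 genes tested changed, 31 lower and 3 higher, with CTH and DDIT3 below the filter on low counts. Of all 7521 genes tested in RPFs 54.4% changed, 26.9% lower and 27.5% higher, and the groups did not overlap for 24 of the 45 members, beside 32.5% of all genes. The median log2 fold change of the list was −0.57 in mRNA and −0.68 in RPFs, with that of all genes at −0.01 and 0.00. All 43 mRNA calls held under every alternative setting tried, and 19 of the 34 RPF calls did.

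**Figure D1:**
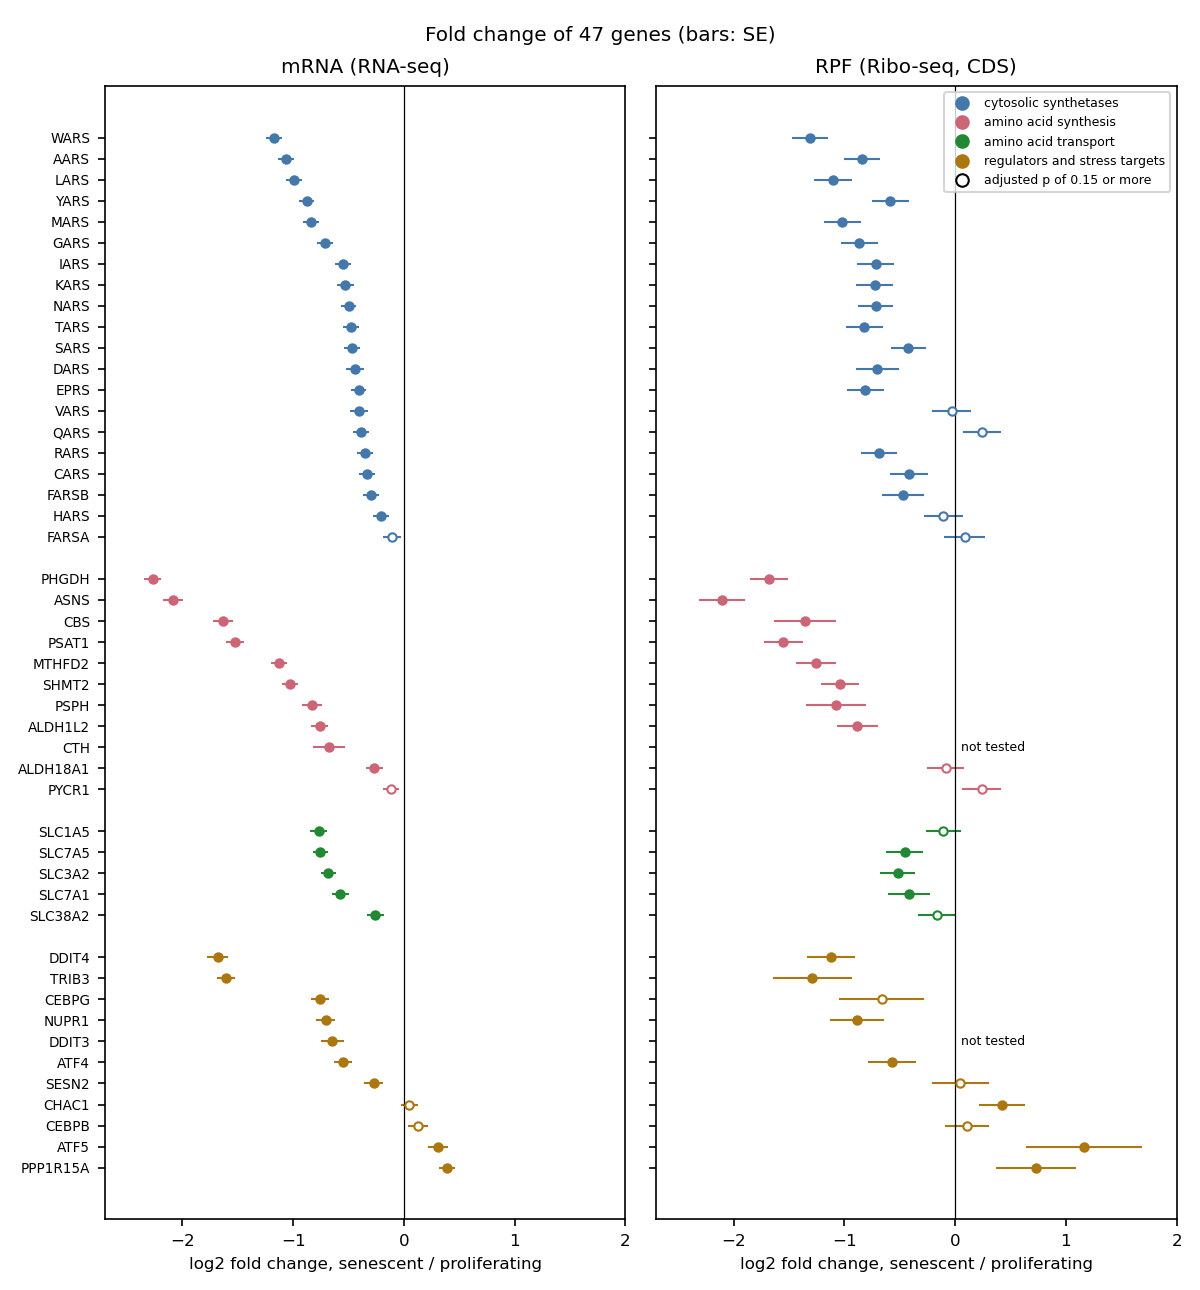
Log2 fold change, senescent over proliferating, of the 47 genes in RNA-seq (left) and in Ribo-seq CDS reads (right), ordered within each group by the mRNA value; bars are standard errors and open points have an adjusted p of 0.15 or more. In mRNA, 19 of 20 synthetases and 15 of 16 synthesis and transport genes were called lower, beside 37% of all genes tested. PHGDH and ASNS lie farthest to the left.

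Falls were deeper in amino acid synthesis than in charging. The median mRNA log2 fold change was −0.47 over the 20 synthetases, −1.03 over the 11 synthesis genes, −0.68 over the 5 transporters and −0.55 over the 11 regulators and targets. Set against the 16 synthesis and transport genes together, the synthetases' median was 0.29 less negative. Taken library by library on log2 CPM centred on each gene's mean, that difference was −0.07, −0.17 and −0.17 in the Pro libraries and 0.09, 0.22 and 0.13 in the Sen libraries, with no overlap between states. Under all alternatives it stayed between 0.25 and 0.32. It is a description of lists, with no test over the list.

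In RPFs the same difference was 0.17, with medians of −0.71 for synthetases and −0.88 for the 15 synthesis and transport genes tested. By library it was −0.24, −0.05 and −0.04 in Pro and 0.09, −0.15 and 0.06 in Sen, so the states overlapped. It was 0.03 without Pro 1, −0.0022 without Sen 1 and 0.02 without Sen 2. A gap between the synthetases and the 15 pooled genes at the level of RPFs was therefore not resolved by these libraries. The pooled median joins groups that lay on opposite sides of the synthetases. It was −1.17 over the 10 synthesis genes tested and −0.41 over the 5 transporters. How far each of these differed from the synthetases library by library was not tested.

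Amino acid synthesis held the largest falls. PHGDH, the first enzyme of serine synthesis from glycolytic intermediates (chr1:120191034-120286841, GRCh37), had mRNA levels of 256, 265 and 267 CPM in Pro and 55.0, 57.5 and 51.2 CPM in Sen. Its RPFs were 538, 462 and 488 CPM in Pro and 131, 176 and 179 CPM in Sen. Both layers separated the states completely, at 4.82-fold lower in mRNA (log2 fold change −2.27 ± 0.07 SE) and 3.21-fold lower in RPFs (−1.68 ± 0.17 SE). ASNS, which makes asparagine (chr7:97480989-97501854), stood at 97.8, 103 and 101 CPM in Pro mRNA and at 22.5, 27.0 and 21.3 CPM in Sen mRNA. ASNS RPFs were 122, 190 and 196 CPM in Pro and 38.9, 52.7 and 54.4 CPM in Sen. The fall of ASNS was almost the same in both layers, 4.24-fold in mRNA and 4.30-fold in RPFs.

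CBS, which joins serine and homocysteine into cystathionine, had 57.9, 60.9 and 58.3 CPM of mRNA in Pro and 18.9, 17 and 21.3 CPM in Sen. Its RPFs were 69.4, 68.3 and 56.0 CPM in Pro and 24.1, 17.6 and 23.3 CPM in Sen. Every Sen library lay below every Pro library, by 3.11-fold in mRNA and 2.56-fold in RPFs. The CBS values of the shallow Ribo-seq libraries rest on 4 CDS footprints in Pro 1 and 1 in Sen 2. PSAT1, the aminotransferase after PHGDH, had 328, 365 and 352 CPM of mRNA in Pro and 109, 139 and 114 CPM in Sen. Its RPFs were 364, 689 and 686 CPM in Pro, the low value being the shallow library Pro 1, and 197, 246 and 249 CPM in Sen. PSAT1 fell 2.88-fold in mRNA and 2.93-fold in RPFs (edgeR adjusted p = 6.67e-12).

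The 6 enzymes of serine synthesis and mitochondrial one-carbon metabolism (PHGDH, PSAT1, PSPH, SHMT2, MTHFD2 and ALDH1L2) were all called lower in both layers, with medians of −1.08 in mRNA and −1.17 in RPFs. The RPFs of PSPH overlapped between states, at 0, 66.8 and 71.5 CPM in Pro and 34.2, 70.3 and 21.4 CPM in Sen. Its 0 came from the shallow library Pro 1 and its 70.3 from the shallow library Sen 2. SHMT2, the mitochondrial serine hydroxymethyltransferase, fell 2.04-fold in mRNA and 2.06-fold in RPFs, and MTHFD2, the next mitochondrial folate enzyme, fell 2.18-fold and 2.39-fold. Proline synthesis behaved otherwise. ALDH18A1, which makes the proline precursor pyrroline-5-carboxylate, had an mRNA log2 fold change of −0.27 ± 0.07 SE (called lower) and an RPF value of −0.09 ± 0.17 SE (not called). PYCR1, which completes proline, had −0.12 ± 0.07 SE in mRNA and 0.24 ± 0.17 SE in RPFs, neither called, although its mRNA was called lower without Pro 3, Sen 1 or Sen 3 and its RPFs were called higher without both shallow libraries. CTH, the enzyme after CBS, fell 1.60-fold in mRNA and was not tested in RPFs. Of the 8 RPF calls in this group only that of PSPH was lost under an alternative, DESeq2.

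Among the synthetases 19 of 20 were called lower in mRNA, beside 37% of all genes tested. FARSA, the catalytic subunit for phenylalanine, was the exception at −0.11 ± 0.08 SE, and was called lower only with library totals and without Sen 3. WARS, for tryptophan (chr14:100800127-100843142), had 462, 469 and 428 CPM of mRNA in Pro and 201, 213 and 188 CPM in Sen. Its RPFs were 607, 616 and 656 CPM in Pro and 267, 158 and 261 CPM in Sen. WARS showed the deepest fall of the group with no overlap, 2.25-fold in mRNA and 2.48-fold in RPFs. AARS, for alanine, had 170, 189 and 186 CPM of mRNA in Pro against 88.8, 87.1 and 84.6 CPM in Sen. AARS RPFs were 469, 488 and 470 CPM in Pro against 233, 281 and 313 CPM in Sen. The states were separate in both layers, at 2.09-fold and 1.79-fold lower.

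LARS, for leucine, had 128, 122 and 127 CPM of mRNA in Pro and 65.2, 62.1 and 62.3 CPM in Sen. LARS RPFs were 278, 266 and 293 CPM in Pro and 123, 87.9 and 152 CPM in Sen. LARS fell 1.99-fold in mRNA and 2.14-fold in RPFs without overlap. YARS, for tyrosine, had 291, 277 and 281 CPM of mRNA in Pro and 155, 156 and 151 CPM in Sen. Its RPFs were 260, 297 and 321 CPM in Pro and 197, 70.3 and 241 CPM in Sen, the lowest from the shallow library Sen 2. YARS fell 1.84-fold in mRNA and 1.5-fold in RPFs, with the RPF call lost under DESeq2 (adjusted p = 0.178).

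The other synthetases called lower spanned mRNA log2 fold changes from −0.84 for MARS (methionine) to −0.21 for HARS (histidine). In RPFs 16 of 20 were called lower, beside 26.9% of all genes tested. The 4 not called were VARS (−0.03 ± 0.17 SE), HARS (−0.11 ± 0.18 SE), FARSA (0.09 ± 0.19 SE) and QARS (0.24 ± 0.17 SE), the last of which was called higher without both shallow libraries. The RPF calls of CARS, SARS and FARSB were each lost without Pro 3 and without Sen 1, those of CARS and SARS also without Pro 2, and those of all 3 and of DARS under DESeq2. The highest adjusted p over these alternatives was 0.504 for CARS, 0.302 for SARS, 0.489 for FARSB and 0.302 for DARS. The 8 synthetases held in the multi-synthetase complex and the 12 outside it had like medians in mRNA, −0.48 and −0.47, and medians of −0.72 and −0.53 in RPFs. Per kilobase of coding sequence, proliferating RPF levels were highest for WARS (443 ± 18.5 CPM per kb, SD, n = 3) and GARS (347 ± 53.5) and lowest for VARS (51.8 ± 10.1), so the synthetase that fell most was also the one with most footprints per length. In senescent cells GARS (208 ± 31.5 CPM per kb) and SARS (178 ± 19.9) lay above WARS (162 ± 43.1), within the spread of these libraries for SARS and WARS.

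Transporter mRNAs fell less than those of the serine enzymes. SLC1A5, a glutamine and neutral amino acid transporter (chr19:47278140-47291851), had 409, 456 and 444 CPM of mRNA in Pro and 246, 246 and 276 CPM in Sen. Its RPFs were 451, 484 and 583 CPM in Pro and 468, 457 and 525 CPM in Sen. The mRNA separated the states, 1.70-fold lower in Sen, while the RPF values overlapped (log2 fold change −0.11 ± 0.16 SE, not called, but called lower with library totals at −0.25). SLC7A5, the light chain of the large neutral amino acid transporter LAT1, had 633, 660 and 659 CPM of mRNA in Pro and 388, 369 and 402 CPM in Sen. SLC7A5 RPFs were 278, 248 and 262 CPM in Pro and 183, 211 and 191 CPM in Sen. It was 1.69-fold lower in mRNA and 1.37-fold lower in RPFs.

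SLC3A2, the heavy chain shared by LAT1 and related transporters, had 298, 321 and 327 CPM of mRNA in Pro and 193, 200 and 197 CPM in Sen. Its RPFs were 642, 582 and 584 CPM in Pro and 398, 422 and 428 CPM in Sen. The partner chains thus fell by like amounts, SLC3A2 being 1.60-fold lower in mRNA and 1.43-fold lower in RPFs. SLC7A1, a cationic amino acid transporter, had 121, 127 and 126 CPM of mRNA in Pro and 84.5, 77.2 and 90.1 CPM in Sen, with RPFs of 104, 122 and 118 CPM in Pro and 91.1, 70.3 and 87.5 CPM in Sen. SLC7A1 was 1.49-fold lower in mRNA and 1.33-fold lower in RPFs without overlap, with only 6 CDS footprints in Pro 1 and 4 in Sen 2. SLC38A2, the amino-acid-responsive transporter SNAT2, had an mRNA log2 fold change of −0.26 ± 0.08 SE (called lower) and an RPF value of −0.16 ± 0.17 SE (not called, but called lower without Pro 1 and with library totals). The RPF calls of SLC7A5 and SLC3A2 were lost without Sen 1 (adjusted p up to 0.326 and 0.160 over the alternatives), that of SLC7A5 also without Pro 3, and that of SLC7A1 without any one of Pro 2, Pro 3, Sen 1 and Sen 3 (up to 0.546). DESeq2 also lost those of SLC7A5 and SLC7A1.

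**Figure D2:**
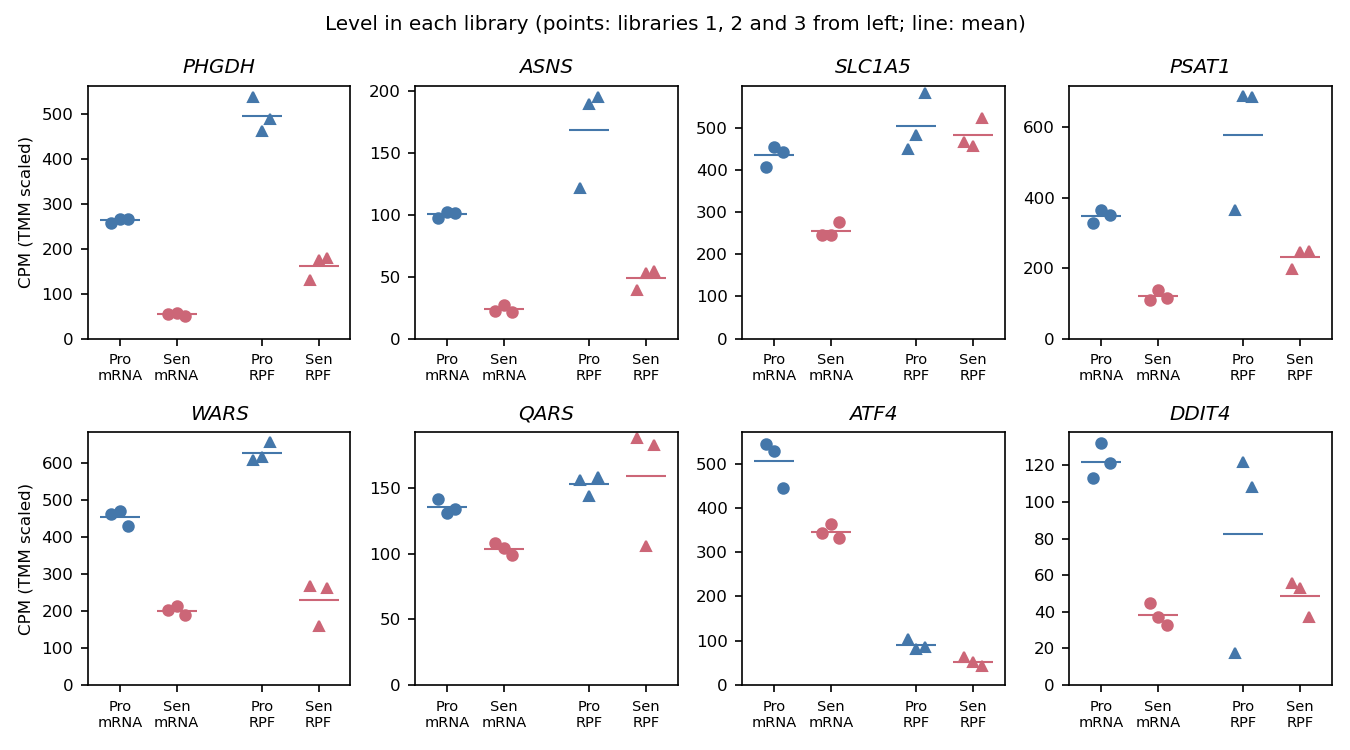
TMM-scaled CPM in each library for 8 genes, mRNA as circles and RPFs as triangles, proliferating in blue and senescent in red, with libraries 1, 2 and 3 from left to right and a line at the mean. PHGDH, ASNS and WARS drop in both layers, while for SLC1A5 and QARS the mRNA drops and the RPF points of the states overlap.

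ATF4 itself was lower in senescent cells. Its mRNA (chr22:39915700-39918688) was at 545, 529 and 445 CPM in Pro and at 343, 363 and 333 CPM in Sen. Its CDS footprints were at 104, 81.6 and 85.3 CPM in Pro and at 63.6, 52.7 and 42.8 CPM in Sen. The states did not overlap in either layer, at 1.46-fold lower in mRNA (log2 fold change −0.55 ± 0.08 SE, edgeR adjusted p = 3.05e-06) and 1.49-fold lower in RPFs (−0.57 ± 0.21 SE, adjusted p = 0.0252). The RPF call was lost under DESeq2, without Pro 3 and without Sen 3, with an adjusted p of up to 0.381. ATF4 had only 6 CDS footprints in Pro 1 and 3 in Sen 2.

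DDIT4, a stress-induced inhibitor of mTORC1, had 113, 132 and 121 CPM of mRNA in Pro and 44.7, 37.4 and 32.8 CPM in Sen. Its RPFs were 17.4, 122 and 108 CPM in Pro and 55.6, 52.7 and 36.9 CPM in Sen. The shallow library Pro 1 lay below all Sen libraries, and the 2 deep Pro libraries lay above them. DDIT4 was 3.21-fold lower in mRNA and 2.17-fold lower in RPFs, the latter call lost under DESeq2. TRIB3, a pseudokinase that binds ATF4 and restrains it, had 86.2, 88.8 and 77.5 CPM of mRNA in Pro and 27.7, 27.4 and 28.0 CPM in Sen. TRIB3 RPFs were 104, 28.2 and 34.0 CPM in Pro and 14.7, 17.6 and 11.7 CPM in Sen. TRIB3 fell 3.04-fold in mRNA and 2.45-fold in RPFs with no overlap, although the value of Pro 1 was far above the other Pro libraries. It had only 6 CDS footprints in Pro 1 and 1 in Sen 2.

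CEBPG, a dimer partner of ATF4, had 63.5, 60.5 and 57.3 CPM of mRNA in Pro and 35.7, 38.1 and 33.2 CPM in Sen. CEBPG RPFs were 0, 19.3 and 28.0 CPM in Pro and 18.1, 52.7 and 3.89 CPM in Sen, too few to order the states. It was 1.69-fold lower in mRNA and not called in RPFs (log2 fold change −0.66 ± 0.38 SE), where 7 of 12 alternatives, among them leaving out Pro 1, Pro 2, Sen 1 or Sen 2, called it lower (−1.38 to −0.19 over all 12). NUPR1, a stress-induced transcriptional regulator, had 149, 136 and 117 CPM of mRNA in Pro and 82.0, 86.6 and 77.6 CPM in Sen. Its RPFs were 34.7, 83.1 and 68.6 CPM in Pro and 40.9, 70.3 and 31.1 CPM in Sen. NUPR1 was 1.63-fold lower in mRNA, and its lower RPF level (−0.88 ± 0.24 SE) rested on libraries that overlapped and lost its call under DESeq2.

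Not every stress target fell. PPP1R15A, the phosphatase subunit that reverses eIF2α phosphorylation, was higher in mRNA (0.39 ± 0.07 SE) and called higher in RPFs (0.73 ± 0.36 SE). ATF5, a related factor that also has upstream reading frames, was higher in mRNA (0.31 ± 0.09 SE) and called higher in RPFs (1.16 ± 0.53 SE). CHAC1, which degrades glutathione, was not called in mRNA (0.05 ± 0.08 SE) and called higher in RPFs (0.42 ± 0.21 SE). CEBPB, a C/EBP factor tied to the senescence secretome, passed in neither layer (0.13 ± 0.09 SE in mRNA), and its mRNA was called higher without Pro 3, Sen 2 or Sen 3. The RPF values of the states overlapped for all 3 genes. ATF5 had RPFs of 52.1, 1.48 and 5.96 CPM in Pro and 10.7, 17.6 and 19.4 CPM in Sen, so that its Pro mean lay above its Sen mean through the shallow library Pro 1. None of the 3 higher RPF calls was kept without Pro 3 or under DESeq2, and with library totals only that of ATF5 was. Those of ATF5 and PPP1R15A were also lost without Sen 3, that of ATF5 without Pro 2, that of PPP1R15A without Sen 2 and that of CHAC1 without Sen 1, with adjusted p of up to 0.823 for ATF5, 0.419 for PPP1R15A and 0.862 for CHAC1. DDIT3 and SESN2 were lower in mRNA at −0.64 ± 0.11 SE and −0.27 ± 0.09 SE.

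Translation efficiency (TE), the change in RPFs beyond that in mRNA, was tested as an interaction of library type and state with the lysate as a block. Of the 45 genes tested 3 changed, all higher, beside 9.37% of the 7473 genes tested, 4.48% lower and 4.88% higher, and a share of members this near the background is not a result about the list. SLC1A5 had log2 RPF to mRNA ratios of 0.17, 0.09 and 0.39 in Pro and 0.93, 0.92 and 0.93 in Sen. It showed the firmest TE change of the list, 0.68 ± 0.16 SE (edgeR adjusted p = 0.00751), and the ratios of the states were far apart. PHGDH had ratios of 1.09, 0.80 and 0.87 in Pro and 1.25, 1.68 and 1.81 in Sen, a TE change of 0.63 ± 0.18 SE (adjusted p = 0.0374). QARS, the glutaminyl-tRNA synthetase (chr3:49133365-49142563), had 142, 131 and 134 CPM of mRNA in Pro and 108, 104 and 98.5 CPM in Sen. QARS RPFs were 156, 144 and 158 CPM in Pro and 188, 106 and 183 CPM in Sen. Its mRNA fell 1.31-fold while its RPFs overlapped, and its log2 ratios of 0.22, 0.15 and 0.24 in Pro and 0.80, 0.13 and 0.90 in Sen set the shallow library Sen 2 apart from the other Sen libraries (TE 0.59 ± 0.18 SE, adjusted p = 0.0570).

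These TE calls depended on single lysates, each left out with both of its libraries. None of the 3 was called without Pro 2, where edgeR gave 0 calls among the members and 4 had an unadjusted p under 0.05, nor with DESeq2, which gave 0 calls and 1 unadjusted p under 0.05. SLC1A5 also lost its call without Sen 1, PHGDH without Pro 3 and without Sen 3, and QARS without Pro 3, Sen 1 or Sen 3. Without Pro 1 there were 5 calls, EPRS and TARS being called lower beside these 3. EPRS was also called lower with RLE factors, with library totals, without both shallow libraries and without the lysate as a block. TARS was also called lower without that block. For the 3 genes called in the main fit the direction was higher in every alternative, at 0.59 to 0.84 for SLC1A5, 0.45 to 0.93 for PHGDH and 0.51 to 0.66 for QARS. Median TE changes were −0.13 for synthetases, 0.10 for synthesis genes and 0.20 for transporters, and −0.01 for all genes tested. In these groups 13 of 20, 4 of 10 and 0 of 5 were negative, beside 51.1% of all genes tested. The median of the synthetases minus that of synthesis and transport genes was −0.26, and by library it was −0.02, 0.22 and 0.27 in Pro and −0.06, −0.42 and −0.06 in Sen.

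Footprints on the CDS for each CDS read of mRNA were next compared as a level, among 7428 genes and in the 4 deep Ribo-seq lysates (Pro 2, Pro 3, Sen 1 and Sen 3). Of these, Sen 3 had the lowest CDS share of assigned Ribo-seq reads, 54.7%. A ratio of CDS reads to CDS reads carries no length. The synthetases held middle ranks, with a median percentile of 57 in Pro and 63.1 in Sen, from QARS at 25 to AARS at 86.8 in Pro. The transporters were spread widely, from SLC38A2 at percentiles 97.2 and 97.9 and SLC7A1 at 94.9 and 95.7 in Pro and Sen down to SLC7A5 at 25.6 and 42.6. Their median percentile was 66.9 in Pro and 92.7 in Sen, beside 65.3 and 69.9 for the synthesis genes, of which PSAT1 stood at 92.8 and 93.1. The lowest ranks were those of regulators, though not of all regulators. PPP1R15A lay at percentile 0.148 in Pro and 0.296 in Sen, ATF4 at 0.404 and 0.350, ATF5 at 0.606 and 11.6, and TRIB3 at 6.79 and 17.1. The ATF5 values rest on 11 CDS footprints in Pro and 26 in Sen. The other regulators compared ranged from CEBPG at 26.9 to DDIT4 at 61.1 in Pro. In Sen they ranged from NUPR1 at 15.4 to DDIT4 at 80.3. The median of the regulators' percentiles was 28.2 in Pro and 17 in Sen. SLC1A5 moved from 64.5 to 92.7, PHGDH from 64.9 to 92.9 and QARS from 25 to 58.9. These ranks share CDS reads with their TE change and are not separate support for it. The TE change was fitted on all 12 libraries, with UTR reads in the mRNA count.

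**Figure D3:**
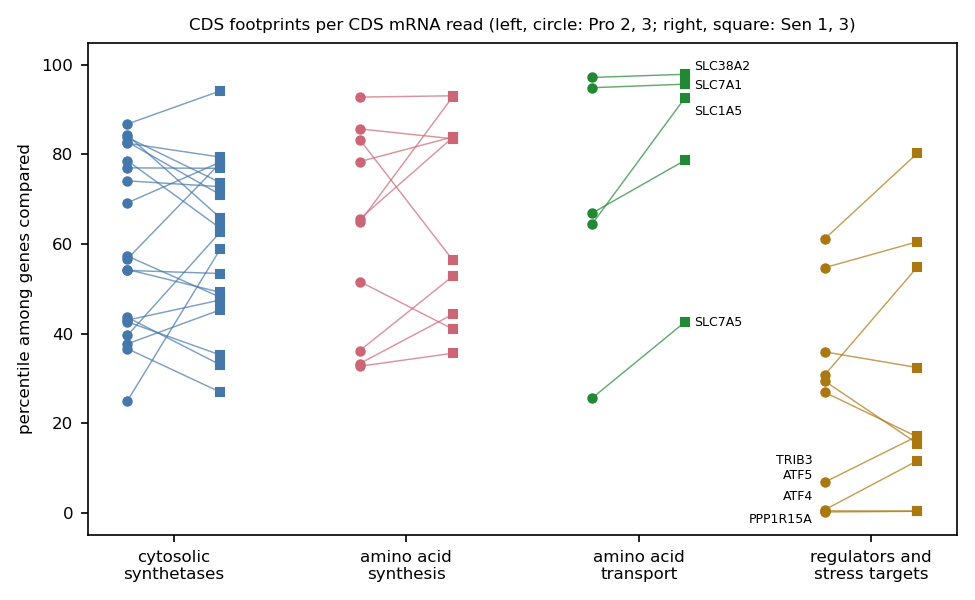
Percentile, among 7428 genes, of CDS footprints per CDS mRNA read for 45 members, in the deep proliferating lysates (circles) and the deep senescent lysates (squares), joined by gene. ATF4 and PPP1R15A lie below percentile 1 in both states, and SLC38A2 and SLC7A1 above percentile 94.

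Most ATF4 footprints lay ahead of its coding sequence in every library. Footprints in the 5′ UTR made up 64.7%, 73.8% and 64.9% of ATF4's 5′ UTR and CDS footprints in Pro (11 of 17, 155 of 210 and 264 of 407) and 71.0%, 66.7% and 61.4% in Sen (233 of 328, 6 of 9 and 35 of 57). The mean was 67.8 ± 5.21% in Pro and 66.4 ± 4.82% in Sen (SD, n = 3 each), so the libraries of the states overlapped. The Wilson 95% interval of the pooled footprints was 64.1 to 71.3% in Pro and 64.8 to 73.9% in Sen. These intervals cover counting error only. In the 5503 genes with at least 50 such footprints in the deep libraries of both states the median share was 1.03% in Pro, and 26 genes (0.472%) were over 50%. The planned permutation test was not run for any member, since 0 of them reached 50 footprints in every library.

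ATF5, DDIT3 and PPP1R15A had high shares on few footprints. Pooled over the deep libraries, ATF5 had 73.8% in Pro (Wilson 95% interval 58.9 to 84.7%) and 51.9% in Sen (38.9 to 64.6%), DDIT3 66.7% (50.3 to 79.8%) and 38.9% (20.3 to 61.4%), and PPP1R15A 35.9% (25.3 to 48.2%) and 28.2% (19.0 to 39.5%). All 3 values were lower in senescent cells, and the intervals of each gene overlapped between states. Among the other members, PSPH had 15.4% in Pro (11 to 21.1%) and 7.46% in Sen (3.23 to 16.3%), TRIB3 10.6% (5.67 to 18.9%) and 9.68% (3.35 to 24.9%), and CEBPG 9.09% (4.23 to 18.4%) in Pro, beside a 90th percentile of all genes of 8.82% in Pro. WARS, SLC1A5 and SLC38A2, singled out after their values were seen, went from 4.95% to 0.561%, from 6.38% to 1.53% and from 4.67% to 1.59% in the deep libraries. Lower shares in Sen were general, for 67% of the 4290 genes with any upstream footprint and for 23 of 35 members (65.7%). The share of 5′ UTR footprints over all genes also differed between libraries, at 11.6, 3.77 and 2.81% in Pro and 5.06, 52.4 and 14.5% in Sen, while over the 47 members it was 1.24 to 4.15%. Its part in the gene values was not tested.

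**Figure D4:**
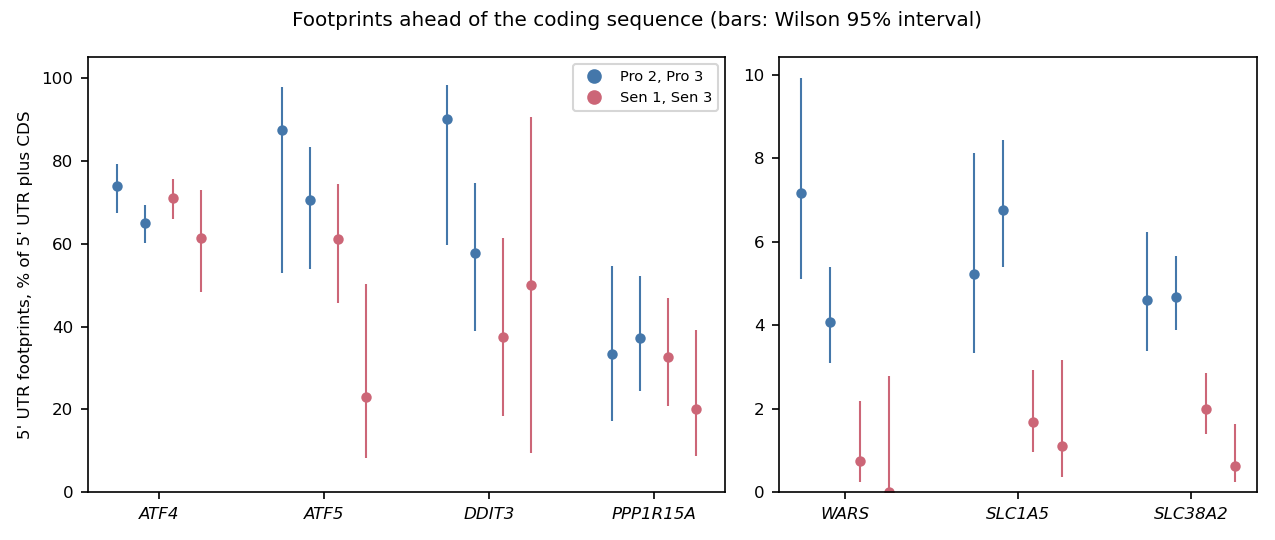
Share of 5′ UTR footprints among 5′ UTR plus CDS footprints in each deep Ribo-seq library, proliferating in blue and senescent in red, with Wilson 95% intervals; the 2 panels have different scales. ATF4 stays between 61.4% and 73.8%, while WARS, SLC1A5 and SLC38A2 are lower in both senescent libraries than in both proliferating ones.

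Some of these genes carry the letters of the C/EBP-ATF response element near a RefSeq start. TGATGNAA, on either strand, was searched in RefSeq promoters (GRCh38.p14, 250 bases before to 50 after the start). That start can lie well inside the annotated span of a gene, as for MARS and SLC1A5. The element was found in 13 of the 38 members with an entry (34.2%), beside 4.46% of all 27305 genes with an entry. The list was assembled around the ATF4 response, so this comparison is not a test. By group the element was in 7 of 16 synthetases, 1 of 7 synthesis genes, 3 of 5 transporters and 2 of 10 regulators. A match is only a description of the letters in this window. The windows below show it in capitals, read 5′ to 3′ on the strand of the gene, with positions on GRCh37, for genes from each group and for CHAC1, which holds the element and was not called in mRNA.
ASNS (chr7:97501770-97501799, − strand): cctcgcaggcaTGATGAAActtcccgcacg
AARS (chr16:70323578-70323607, − strand): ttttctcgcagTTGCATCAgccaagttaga
MARS (chr12:57881836-57881865, + strand): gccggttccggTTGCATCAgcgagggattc
TARS (chr5:33441062-33441091, + strand): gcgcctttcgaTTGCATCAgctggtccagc
SLC1A5 (chr19:47288150-47288179, − strand): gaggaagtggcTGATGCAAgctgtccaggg
SLC7A1 (chr13:30169800-30169829, − strand): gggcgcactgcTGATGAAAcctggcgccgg
CEBPG (chr19:33864966-33864995, + strand): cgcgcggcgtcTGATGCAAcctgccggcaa
CHAC1 (chr15:41245449-41245478, + strand): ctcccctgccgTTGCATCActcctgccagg
In ASNS, SLC1A5, SLC7A1 and CEBPG the element reads along the gene, and in AARS, MARS, TARS and CHAC1 it lies on the opposite strand. The mRNA log2 fold changes of these 8 genes ran from −2.08 for ASNS to 0.05 for CHAC1.

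Related genes outside the list were counted for comparison. Of 17 mitochondrial synthetases 11 were lower and 1 higher in mRNA, with a median of −0.35, and of 11 tested in RPFs 3 were lower and 1 higher. Over all genes 37% were lower in mRNA and 26.9% in RPFs, and the RPF count of this family is near that background. The one higher in mRNA was RARS2, for arginine (0.28 ± 0.09 SE), whose RPFs were lower (−0.72 ± 0.25 SE) and whose TE was called lower (−0.95 ± 0.25 SE, edgeR adjusted p = 0.0198). The 3 scaffold proteins of the multi-synthetase complex, AIMP1, AIMP2 and EEF1E1, were lower in mRNA, at −0.21, −0.24 and −0.48. Among the kinases that act on eIF2α, EIF2AK4 (GCN2, which senses uncharged tRNA) was higher in both layers without overlap (0.64 ± 0.07 SE in mRNA and 0.61 ± 0.19 SE in RPFs), and EIF2AK2 (PKR) was lower without overlap (−0.40 ± 0.08 SE and −1.07 ± 0.21 SE). The TE of EIF2AK2 was called lower (−0.59 ± 0.23 SE, edgeR adjusted p = 0.136). EIF2AK1 was called in neither layer (0.11 ± 0.07 SE in mRNA and 0.30 ± 0.22 SE in RPFs). EIF2AK3 (PERK) was called higher at 0.19 ± 0.10 SE in mRNA (edgeR adjusted p = 0.0898) and 0.68 ± 0.36 SE in RPFs (adjusted p = 0.126), with the states overlapping in both layers and RPFs of 0, 8.90 and 20.3 CPM in Pro and 30.2, 0 and 19.4 CPM in Sen. Of 14 other genes known as ATF4 targets 10 were lower and 3 higher in mRNA, and of 13 tested in RPFs 8 were lower and 3 higher, beside the background shares just given. Those higher in mRNA were GDF15 (1.05 ± 0.08 SE), a secreted stress cytokine, ERO1A (1.06 ± 0.08 SE), an oxidase of the endoplasmic reticulum, and HERPUD1 (0.16 ± 0.07 SE), a factor of protein degradation there. Those higher in RPFs were GDF15, ERO1A and STC2 (0.29 ± 0.16 SE), the last of which was not called in mRNA. HERPUD1 was not called in RPFs (−0.01 ± 0.17 SE).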

How the data were processed

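IMR90 lysates (3 proliferating, 3 senescent) gave RNA-seq and Ribo-seq libraries. The authors deposited estimated counts of reads per gene for the 5′ UTR, CDS and 3′ UTR. Most are whole and some hold fractions of reads, so values were rounded after regions were summed. Submitters' notes name cutadapt 1.18, Bowtie 1.0.1, SAMtools 1.8 and DESeq2 1.22.2. Genome build, annotation, the rule for strand and for reads with several matches are not given in the sources used here. Exons of 10 of the 47 genes overlap an exon on the opposite strand (AARS, HARS, MARS, WARS, YARS, SHMT2, MTHFD2, ALDH1L2, ATF5 and DDIT3, of which MARS and DDIT3 overlap each other), and those reads may be shared.

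mRNA was 5′ UTR plus CDS plus 3′ UTR in RNA-seq, and RPF was CDS in Ribo-seq, over 16451 symbols with a CDS read. edgeR 4.0.16 (quasi-likelihood test, filterByExpr, TMM factors) was run on 6 libraries per layer, and TE on 12 libraries with lysate as block, since both libraries of a number came from one lysate. Deviations of the layers of one lysate from their group means correlated between −0.0544 and 0.0706 across genes. p-values were adjusted by Benjamini-Hochberg over all genes tested, with a threshold of 0.15, and measure the spread between these cultures. The study's own model for TE was not installed, and an interaction test was used instead. Per-library ratios added 0.5 counts. Gene positions and coding lengths are from GENCODE release 44 on GRCh37, and promoters from RefSeq. Promoter windows were placed on GRCh37 by a single exact match.

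Alternatives were RLE factors, library totals, a filter of at least 1 read, DESeq2 1.42.0, leaving out each library or both shallow ones, CDS-only mRNA, the replicate block, a threshold of 0.05 and, chosen after seeing the data, TMM factors from genes tested in both layers. In TE, leaving out a library meant leaving out both libraries of its lysate. Members and lists were chosen with earlier results of these data known. Values in every library are given for ATF4, for the 4 members of each group with the largest mRNA change among those called, and for members called in TE.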

Additional observations from a re-analysis of the deposited data

How the results depend on the processing

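In mRNA the number of the 47 genes called changed was 43 to 46 under every alternative tried, and the difference between the medians of synthetases and of synthesis and transport genes stayed between 0.25 and 0.32. In RPFs 34 calls became 20 with DESeq2 and 25 to 36 when 1 library was left out. The RPF difference between the medians, 0.17, became 0.03318 with a filter of at least 1 read, 0.05107 with DESeq2 and 0.02329 without both shallow libraries, and leaving out 1 library gave −0.002196 (without Sen 1) to 0.245 (without Pro 3). For TE the 3 calls became 0 with DESeq2 and 5 with no replicate block, that is without the lysate as a block. They became 0 (without Pro 2) to 5 (without Pro 1) when 1 lysate was left out with both of its libraries. The causes were not tested. Replicate numbers did not pair the states: same-numbered cultures correlated between −0.073 and 0.089 in mRNA and between 0.0077 and 0.042 in RPFs. With the replicate block 43 members were called in mRNA and 26 in RPFs (CARS, SARS, FARSB, SLC7A5, SLC7A1, ATF5, CHAC1 and NUPR1 were not), and the RPF difference between the medians was 0.03789. Depth limits the RPF and TE values most in Pro 1 and Sen 2, where many members rest on a few footprints. Groups of 3 libraries are too small for a search for outlying samples.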
